A study of Mus musculus with 18 samples.

Results

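The subject is the effect of an HSF1 knockdown on fibroblasts that were not heat-shocked. The members are the 6 arrays at 37 °C titled with the mHSF1 knockdown (HSF1-KD Cont, 3 arrays) or with the scrambled control (SCR Cont, 3 arrays), taken by their titles from the 18 arrays of the series, and all genes of these arrays were examined. All cells were immortalized mouse embryonic fibroblasts (MEFs) of ICR background, kept in serum-containing medium. They were infected for 2 h with an adenovirus that expressed a short hairpin RNA and then held in normal medium for 70 h. Each knockdown rested on 1 adenovirus construct (Ad-sh-mHSF1-KD2 for HSF1-KD and Ad-sh-SCR for SCR). HSF1-KD and SCR cells that received 42 °C for 1 h (HS, 3 arrays each) and SSBP1-KD cells at 37 °C (3 arrays, virus Ad-sh-mSSBP1-KD1) are used below for comparison. Total RNA (200 ng) was hybridized to whole-transcript gene arrays and 19936 genes had a signal assigned to 1 symbol. The level of Hsf1 itself is not analysed here, because no probe set was assigned to it alone, so the depletion was not checked on these arrays. The labels do not say whether the 3 arrays of a group stand for separate cultures, so the p-values reflect only how far these arrays differ, possibly for technical reasons, and the number of arrays limits the precision.

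HSF1 is the transcription factor that switches on heat shock genes. In unstressed mammalian cells most of it is held inactive as a monomer bound by chaperones, and on proteotoxic stress it forms trimers that bind heat shock elements, which are inverted repeats of the unit GAA. HSF1 also has roles without heat: it keeps the basal level of some chaperones and has been described at genes of growth, metabolism and inflammation.

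The 6 arrays were close in overall signal, with array medians within the range of 7.88 to 7.94 found over all 18 arrays (log2). The medians were 7.8954 to 7.9037 in SCR Cont and higher, 7.9085 to 7.9322, in HSF1-KD Cont. Among these 6 arrays, the lowest correlation between 2 arrays of the same group was 0.993. Markers of fibroblasts, such as collagens and platelet-derived growth factor receptors, were expressed: 11 of 14 lay above the gene median of 8.22 in SCR Cont. Of the markers of other cells, 2 of 10 epithelial, 1 of 10 macrophage and blood, and 0 of 8 endothelial genes did so. The same held for 2 of 8 neural, 1 of 8 adipocyte, 1 of 8 skeletal muscle and 0 of 8 germ and pluripotent genes. The mean of the fibroblast markers was 10.36 to 10.41 in the SCR Cont arrays and 10.21 to 10.24 in the HSF1-KD Cont arrays. In bulk samples such as these, fewer cells of a type and less RNA per cell cannot be told apart.

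Knockdown of HSF1 at 37 °C was accompanied by many small differences in both directions. In limma, at an adjusted p under 0.05, 2178 genes (10.9%) were higher and 2014 genes (10.1%) were lower in HSF1-KD Cont than in SCR Cont. These shares over all genes are the background for the counts within gene lists given below. Most of the differences were modest: the median log2 difference was 0.27 for the higher and -0.29 for the lower genes, and the median of all genes was 0.03. A difference over 1.5-fold was seen for 115 higher and 207 lower genes, and one over 2-fold for 12 higher and 31 lower genes. The groups did not overlap for 4172 of the 4192 called genes, against 7913 (39.7%) of all genes. Of the 4192 genes, 2598 were called in every fit that left out 1 of the 6 arrays, and 2522 when the spread was estimated from these 6 arrays alone.

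**Figure D1:**
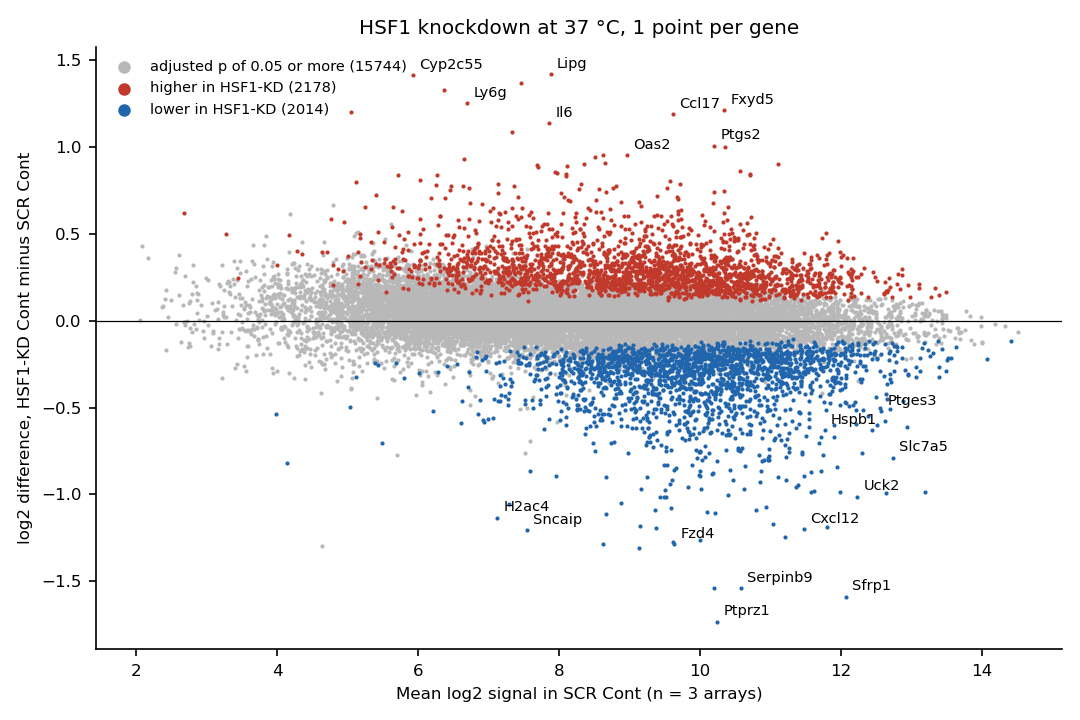
Log2 difference between HSF1-KD Cont and SCR Cont (vertical axis) against the mean log2 signal in SCR Cont (horizontal axis), 1 point per gene. The 2178 higher genes (red) and 2014 lower genes (blue) mostly lie within 1 log2 unit of 0, and the largest falls, such as Ptprz1 and Sfrp1, exceed the largest rises, such as Lipg.

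One array of each group stood at the edge of its group for many of these genes. SCR Cont replicate 3 was the lowest control array in 12 of the 15 largest rises and the highest in 14 of the 15 largest falls. Over all called genes it was the lowest control in 1133 (52%) of the higher and the highest in 1133 (56.3%) of the lower genes. Without it, all 15 largest rises (log2 0.86 to 1.37) and all 15 largest falls (log2 -1.64 to -0.99) were still called, with adjusted p of at most 0.00194 and 0.000819. HSF1-KD Cont replicate 2 was the highest knockdown array in 1141 (52.4%) of the higher and the lowest in 857 (42.6%) of the lower genes. Without that array, 1536 genes were called higher and 1590 lower.

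At 37 °C, the small chaperone Hspb1, the mitochondrial cochaperone Hspe1 and the HSP90 cochaperone Ptges3 were lower in HSF1-KD than in SCR arrays. These falls among the heat shock proteins were 1.39- to 1.55-fold. Hspb1 (HSP27, a small heat shock protein that holds unfolding proteins) read 11.71, 11.79 and 11.82 in the SCR Cont arrays and 11.21, 11.17 and 11.04 in the HSF1-KD Cont arrays (log2 signal). Its log2 difference was -0.63 (standard error 0.0663, limma adjusted p = 1.51e-05). Every knockdown array lay below every control array.

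Hspe1, the HSP10 lid of the mitochondrial folding chamber, read 12.15, 12.09 and 11.96 in SCR Cont and 11.73, 11.43 and 11.61 in HSF1-KD Cont (log2 difference -0.48, standard error 0.0741, adjusted p = 0.000425). Again the groups did not overlap. Its partner Hspd1 (HSP60), which shares a bidirectional promoter with it, read 12.04, 11.97 and 11.86 against 11.99, 11.89 and 11.90, which overlapped (log2 difference -0.02, adjusted p = 0.802).

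Ptges3 (p23, which stabilizes the closed HSP90 dimer) read 12.61, 12.53 and 12.56 in SCR Cont and 12.13, 11.97 and 12.04 in HSF1-KD Cont (log2 difference -0.52, standard error 0.0489, adjusted p = 5.82e-06). The HSP40 cochaperone Dnajb1, which hands substrates to HSP70, had lower values in all 3 knockdown arrays (9.65, 9.54 and 9.49) than in the controls (9.88, 9.85 and 9.83), with a log2 difference of -0.30 at an adjusted p of 0.00974. Serpinh1 (HSP47), the collagen chaperone of the endoplasmic reticulum, was 11.68 in each control array and 11.47, 11.44 and 11.45 after the knockdown (log2 difference -0.22, adjusted p = 0.00788).

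By family, the cytosolic chaperones moved unevenly. Of 17 measured genes for HSP90 and its cochaperones, 5 fell and 0 rose (median log2 -0.09, all genes 0.03). Besides Ptges3, these were Ttc4 (-0.36), the immunophilin Fkbp4 (-0.25), the HSP70-HSP90 adaptor Stip1 (-0.19) and Aarsd1 (-0.18). Stip1 was no longer called without SCR Cont replicate 1 or HSF1-KD Cont replicate 2 (highest adjusted p = 0.0605), nor Aarsd1 without replicate 3 of either group (highest adjusted p = 0.0848).

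Of the 18 genes for small HSPs, BAG proteins and nucleotide exchange factors, 7 fell and 1 rose (median log2 0.01). The falls other than Hspb1 were Hspb11 (-0.46), Bag5 (-0.25), Hspb6 (-0.22), Hspb8 (-0.20), Cryab (-0.19) and St13 (-0.19), and the rise was Hspbap1 (0.24). Some of these calls rested on single arrays. Hspb11 was not called without HSF1-KD Cont replicate 2 (adjusted p = 0.0522), and Hspb8, the partner of BAG3 in selective autophagy, was lost without SCR Cont replicate 1 or 2 or HSF1-KD Cont replicate 2 or 3 (highest adjusted p = 0.166). Cryab, the alpha-B crystallin, was lost without any array but HSF1-KD Cont replicate 2 (highest adjusted p = 0.11).

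The HSP70 and HSP110 family showed 3 rises and 0 falls among 9 measured genes (median log2 0.05). The largest was Hspa4l, an HSP110 relative, which read 9.63, 9.66 and 9.53 in SCR Cont and 9.98, 10.07 and 10.05 in HSF1-KD Cont (log2 difference 0.43, standard error 0.0558, adjusted p = 0.000103). Hspa14 rose by 0.21 and Hspa13 by 0.15, the second not being called without any 1 array but HSF1-KD Cont replicate 2 (highest adjusted p = 0.106). With array medians set equal, this family gave 2 rises and 1 fall. With the 6 compared arrays alone, or with the t-test of the study's methods, it gave 1 rise and 0 falls. Of 16 HSP40 genes, 3 rose (Dnajc5 0.25, Dnajb5 0.24, Dnajb14 0.17) and 2 fell, Dnajb1 and Dnaja1 (-0.18). Dnajb14 was lost without SCR Cont replicate 2 or HSF1-KD Cont replicate 3 (highest adjusted p = 0.0756), and Dnaja1 without any of 4 arrays, replicates 1 and 2 of SCR Cont and 2 and 3 of HSF1-KD Cont (highest adjusted p = 0.165). Dnaja1 was not called with its second probe set either.

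Several of the best-known heat-inducible genes did not pass the test at 37 °C. The inducible HSP70 gene Hspa1a read 8.42, 8.63 and 8.54 in SCR Cont and 8.52, 8.62 and 8.61 in HSF1-KD Cont (log2 difference 0.05, standard error 0.0656, adjusted p = 0.682), and the arrays of the groups interleaved. After heat shock the same gene read 12.79, 12.85 and 12.90 in SCR and 9.10, 9.14 and 9.16 in HSF1-KD cells, a log2 difference of -3.71. Hsph1 (HSP110), the cochaperone Bag3, the inducible HSP90 gene Hsp90aa1 and the constitutive HSP70 gene Hspa8 also were not called, with log2 differences of -0.06, 0.11, 0.09 and -0.11 and adjusted p of 0.633, 0.289, 0.162 and 0.0927. Hspa8 was called in 4 of the 17 alternatives run for it (log2 difference -0.13 to 0.01, adjusted p 0.0277 to 0.868). Bag3 was called in 1 of 16, the t-test of the study's methods.

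**Figure D2:**
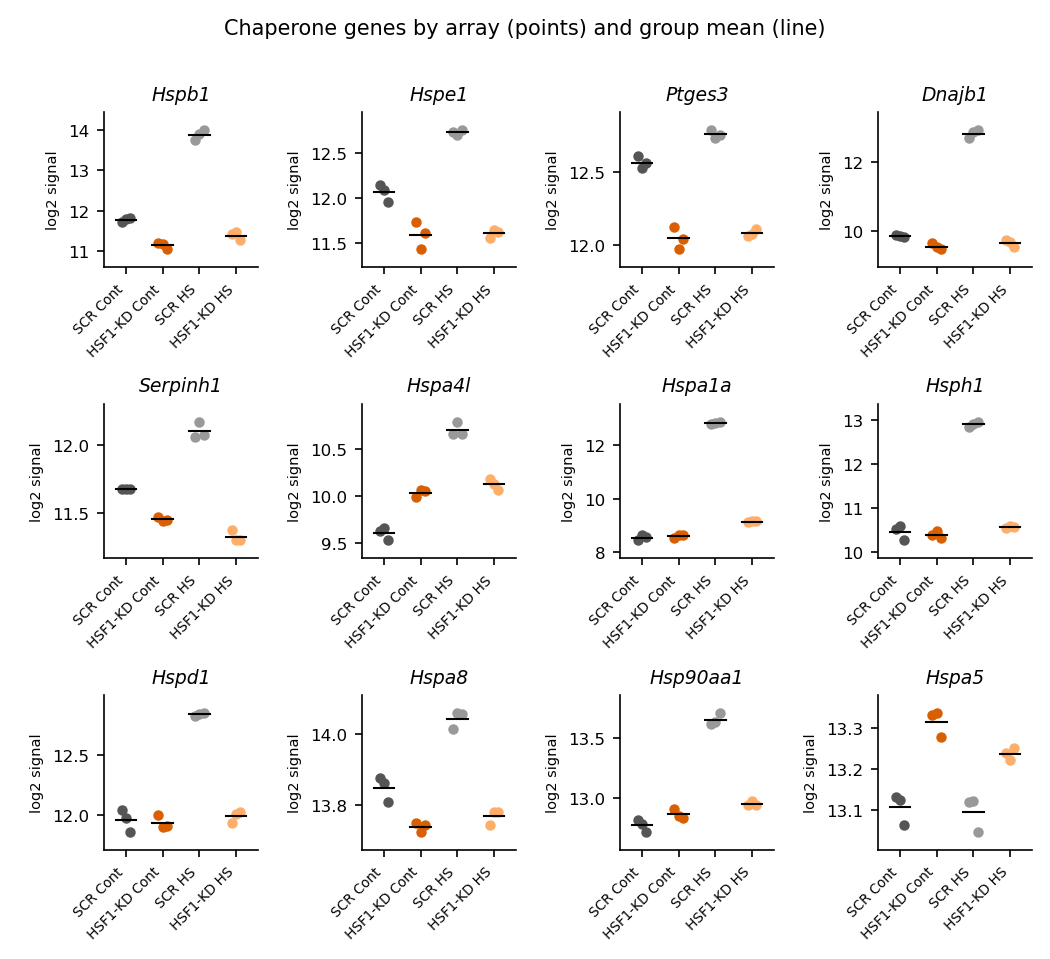
Log2 signal (vertical axes, scaled per gene) of 12 chaperone genes in SCR and HSF1-KD cells at 37 °C (Cont) and after heat shock (HS), 3 arrays per group as points and the group mean as a line. Hspb1, Hspe1, Ptges3, Dnajb1 and Serpinh1 are lower in the knockdown arrays already at 37 °C, whereas Hspa1a, Hsph1 and Hspd1 separate only after heat shock.

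Organelle chaperones were counted by compartment, beside background shares of 10.9% higher and 10.1% lower over all genes. In the endoplasmic reticulum, 11 of 29 genes of chaperones and the unfolded-protein response rose and 4 fell (median log2 0.10). The rises included the eIF2alpha kinase inhibitor Dnajc3 (0.53), Creld2 (0.39), the disulfide isomerase Pdia6 (0.37), Hyou1 (0.29) and Hspa5 (0.21). Hspa5 (BiP, the HSP70 of this compartment) read 13.13, 13.13 and 13.06 in SCR Cont and 13.33, 13.34 and 13.28 in HSF1-KD Cont (adjusted p = 0.00236), without overlap. Among the falls were Dnajb9 (-0.36), another BiP cochaperone, and the transcription factor Xbp1 (-0.22). The count of rises dropped to 7 without HSF1-KD Cont replicate 1, SCR Cont replicate 2 or SCR Cont replicate 3. In mitochondria, 3 of 24 chaperone and protease genes rose and 2 fell (median log2 0.00), close to the shares over all genes. The falls were Hspe1 and Dnaja3 (-0.22, not called without SCR Cont replicate 1 or 2 or HSF1-KD Cont replicate 3, highest adjusted p = 0.0784). The rises there numbered 1 without HSF1-KD Cont replicate 2 or SCR Cont replicate 3, and the falls 1 to 4 with 1 array left out, the lowest without SCR Cont replicate 1 or 2. The matrix HSP70 gene Hspa9 had a log2 difference of -0.12 (adjusted p = 0.0502), and was called in 8 of the 16 alternatives run for it (adjusted p 0.0156 to 0.209). Of the 15 genes of the TRiC chaperonin and prefoldin, only Pfdn5 passed (-0.21, list median -0.05), and it did not without SCR Cont replicate 1 or HSF1-KD Cont replicate 2 (highest adjusted p = 0.0535).

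Among 22 genes of the HSF family and its regulators, 3 rose and 3 fell (median log2 0.04), and the rises fell to 0 when array medians were set equal or when SCR Cont replicate 3 or HSF1-KD Cont replicate 1 was left out. The falls were Ptges3, given above, Ash2l (-0.29, adjusted p = 0.000529), a subunit of histone H3 methyltransferase complexes, and Smarca4. Hsf2 and Hsf4 had log2 differences of 0.14 (adjusted p = 0.126) and 0.06 (adjusted p = 0.514). Ssbp1, the mitochondrial single-stranded DNA-binding protein that the study examined as an HSF1 partner, read 9.54, 9.36 and 9.36 in SCR Cont and 9.62, 9.55 and 9.49 in HSF1-KD Cont, which overlapped (log2 difference 0.13, adjusted p = 0.325). Smarca4 (BRG1, a chromatin remodelling ATPase) was lower by a log2 difference of -0.14 (adjusted p = 0.0245), a call lost without replicates 1 or 2 of SCR Cont or 1 or 3 of HSF1-KD Cont (highest adjusted p = 0.0908). The mitochondrial channel gene Vdac1 fell by 0.26 on the log2 scale (adjusted p = 0.00129).

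Heat shock elements were read in the promoter windows of RefSeq (mouse build GRCm38.p6, 250 bases before to 50 after each start). The search was for 3 alternating units, GAANNTTCNNGAA or TTCNNGAANNTTC, on both strands. It found them in 198 of all 32851 promoters (0.603%). They were in 13 of 1574 genes lower after the knockdown at 37 °C (0.826%), 9 of 1749 higher genes (0.515%) and 66 of 12291 genes not called (0.537%). In the cytosolic chaperone lists 3 of 50 genes had one (6%). A match describes letters in a window and does not show binding, and a missing match says nothing of other windows. The promoters below were chosen for their values: a basal fall with heat shock elements (Hspe1), a basal fall with pairs of units only (Hspb1), the fallen gene Rtn1 outside the chaperones, and an element-bearing chaperone that was not called at 37 °C (Hsph1). Capitals mark the 3-unit elements, or for Hspb1 the pairs GAANNTTC or TTCNNGAA.
Hspe1: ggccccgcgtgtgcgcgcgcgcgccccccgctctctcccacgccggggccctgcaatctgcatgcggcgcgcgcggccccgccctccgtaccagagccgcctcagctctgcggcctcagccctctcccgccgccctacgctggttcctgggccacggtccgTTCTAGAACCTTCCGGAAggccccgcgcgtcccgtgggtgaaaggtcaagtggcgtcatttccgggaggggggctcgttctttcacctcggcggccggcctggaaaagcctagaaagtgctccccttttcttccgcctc
Hspb1: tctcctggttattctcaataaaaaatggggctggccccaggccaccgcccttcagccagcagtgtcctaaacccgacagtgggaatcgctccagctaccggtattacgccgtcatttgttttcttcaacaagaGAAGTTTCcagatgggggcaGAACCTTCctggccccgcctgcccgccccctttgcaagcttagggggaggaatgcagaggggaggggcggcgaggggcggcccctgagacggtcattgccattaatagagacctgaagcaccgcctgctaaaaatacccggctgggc
Rtn1: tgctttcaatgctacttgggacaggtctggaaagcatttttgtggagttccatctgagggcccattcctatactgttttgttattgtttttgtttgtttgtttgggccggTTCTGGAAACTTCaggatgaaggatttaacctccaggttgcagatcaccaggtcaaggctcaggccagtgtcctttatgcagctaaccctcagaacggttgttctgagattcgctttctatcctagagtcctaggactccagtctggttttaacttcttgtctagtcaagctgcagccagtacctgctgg
Hsph1: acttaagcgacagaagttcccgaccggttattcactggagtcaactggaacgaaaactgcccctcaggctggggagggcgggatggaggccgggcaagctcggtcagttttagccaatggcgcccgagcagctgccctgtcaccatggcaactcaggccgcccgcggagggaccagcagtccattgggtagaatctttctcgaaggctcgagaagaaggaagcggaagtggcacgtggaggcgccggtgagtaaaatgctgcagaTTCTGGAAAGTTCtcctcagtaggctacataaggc

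The Hspe1 window (chr1:55087898-55088197, plus strand) held 2 overlapping elements that begin 89 and 84 bases before the start, and the window of Hspd1 on the opposite strand overlaps it and held the same 2. Of this divergent pair with shared elements, Hspe1 was called lower at 37 °C and Hspd1 was not, and the difference between the genes was not tested. The Hspb1 window (chr5:135887669-135887968, plus strand) held no 3-unit element and 2 pairs of units, at 117 and 97 bases before the start. Such pairs are common, being present in 15.1% of all promoters, 14% of the lower genes, 15.6% of the higher genes and 15.5% of the genes not called. Neither a 3-unit element nor a pair was found for the fallen genes Ptges3, Dnajb1, Serpinh1, Stip1, Ttc4, Uck2 and Serpinb9. Fkbp4, Dnaja1 and Hspb8 had a pair but no 3-unit element. The Rtn1 window (chr12:72409005-72409304, minus strand), 1 of 3 for this gene and the only one with an element, held 1 element 140 bases before the start. Rtn1, a reticulon of endoplasmic reticulum tubules, read 10.17, 10.13 and 10.35 in SCR Cont and 9.13, 9.15 and 9.05 in HSF1-KD Cont (log2 difference -1.10, adjusted p = 4.59e-07). The Hsph1 window (chr5:149636266-149636565, minus strand), 1 of 2 in the table, held 1 element 15 bases after the start, and Hsph1 had a log2 difference of -0.06 at 37 °C and -2.33 after heat shock. Rtn1 was picked after its values were seen.

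The largest falls were not chaperones. Among them were Ptprz1 (3.33-fold lower), Sfrp1 (3.01-fold lower) and Serpinb9 (2.91-fold lower). Ptprz1, a receptor tyrosine phosphatase, read 10.19, 10.10 and 10.43 in SCR Cont and 8.54, 8.47 and 8.52 in HSF1-KD Cont (log2 difference -1.73, standard error 0.122, adjusted p = 4.59e-07). Its ligand pleiotrophin (Ptn) fell too, by 1.27 on the log2 scale. Sfrp1, a secreted antagonist of Wnt ligands, read 11.92, 12.01 and 12.27 against 10.48, 10.44 and 10.50 (log2 difference -1.59, standard error 0.109, adjusted p = 4.24e-07). Serpinb9, an intracellular inhibitor of granzyme B, read 10.57, 10.62 and 10.56 against 9.09, 8.99 and 9.04 (log2 difference -1.54, standard error 0.0712, adjusted p = 4.02e-08). For all 3 genes the groups were far apart relative to their spread. Absence of overlap was itself a condition for picking the largest falls. Serpinb9 has close paralogs in the mouse whose sequence its probes may share.

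The other 12 of the 15 largest falls had log2 differences of -1.54 to -1.18. Receptors among them were Plxna4 for semaphorins (-1.54), Fzd4 for Wnt and Norrin (-1.29) and Adcyap1r1 for the peptide PACAP (-1.27). Cxcl12, the ligand of the chemokine receptor CXCR4, read 11.41, 11.36 and 11.65 in SCR Cont and 10.31, 10.18 and 10.34 in HSF1-KD Cont (log2 difference -1.20, adjusted p = 1.22e-07). The glycine transporter gene Slc6a9 fell by 1.19, the small C-terminal domain phosphatase gene Ctdsp2 by 1.25, and the kinase gene Stk26 by 1.29 on the log2 scale. Lrrn4 (-1.31), Sncaip (-1.21), Islr (-1.20) and Abi3bp (-1.18) complete the list together with Ptn.

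Uck2, which phosphorylates uridine and cytidine in pyrimidine salvage, also fell and is named after its values were seen. It read 12.23, 12.29 and 12.16 in SCR Cont and 11.22, 11.27 and 11.15 in HSF1-KD Cont (log2 difference -1.01, standard error 0.0483, adjusted p = 4.02e-08). The groups did not overlap.

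**Figure D3:**
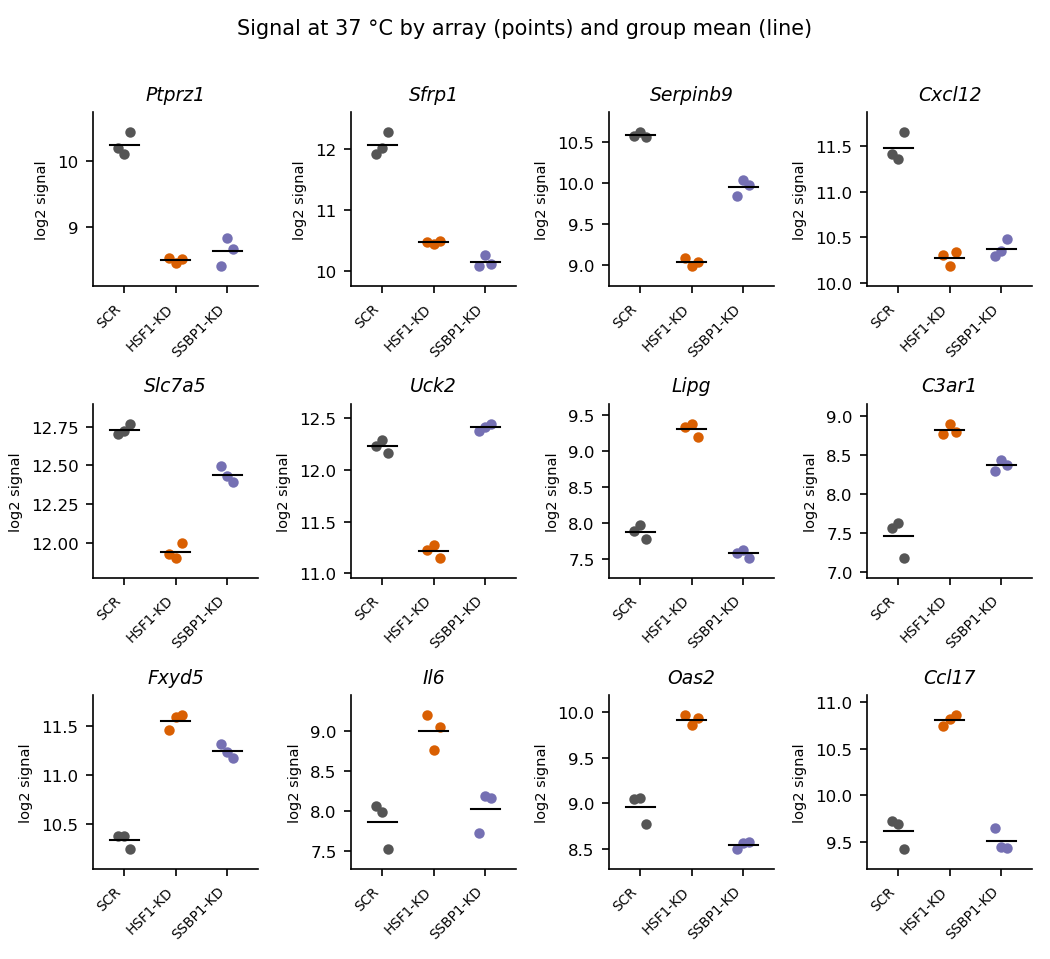
Log2 signal at 37 °C (vertical axes, scaled per gene) of 12 genes with large differences in SCR, HSF1-KD and SSBP1-KD cells, 3 arrays per group as points and the group mean as a line. The SCR and HSF1-KD arrays do not overlap in any panel, which was a condition for picking the largest rises and falls. The SSBP1-KD arrays lie with HSF1-KD for Ptprz1 and Cxcl12 and with or beyond SCR for Uck2, Lipg, Oas2 and Ccl17.

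Genes of the extracellular matrix were among those that fell. Of the 14 fibroblast markers, several of them matrix genes, 8 fell and 2 rose. Of 39 collagen genes, 11 fell and 2 rose (median log2 -0.03), against background shares of 10.1% lower and 10.9% higher, and 1 rose when any 1 array was left out. Col1a2, a chain of type I collagen, read 12.26, 12.26 and 12.38 in SCR Cont and 11.58, 11.46 and 11.56 in HSF1-KD Cont (log2 difference -0.76, adjusted p = 4.24e-07). Col12a1, a collagen that decorates fibrils, had a log2 difference of -0.80, and the type VI chain gene Col6a2 one of -0.49. Among 41 other matrix and crosslinking genes, 9 fell and 5 rose (median log2 0.00), the rises numbering 3 without HSF1-KD Cont replicate 2 or 3. Tenascin C (Tnc) fell by 0.99 and the collagen-crosslinking oxidases Lox and Loxl1 by 0.55 and 0.49 on the log2 scale. Of 15 small leucine-rich proteoglycans, which bind collagen fibrils, Fmod (-1.10), Ogn (-1.05) and Dcn (-0.61) fell, and 1 gene rose.

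Secreted growth regulators showed falls and a smaller set of rises. Of 34 genes of the IGF axis and growth factors, 14 fell and 6 rose (median log2 -0.08). The insulin-like growth factor genes and their binding proteins were prominent: Igfbp3 fell by 1.09, Igf2 by 0.80, Igfbp2 by 0.63 and Igfbp4 by 0.59 on the log2 scale. Ligands of the EGF receptor were the largest rises, Hbegf reading 10.47, 10.39 and 10.18 in SCR Cont and 10.98, 11.20 and 11.10 in HSF1-KD Cont (log2 difference 0.75, adjusted p = 4.66e-06). Ereg, another such ligand, had a log2 difference of 0.69.

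Of 32 Wnt pathway genes, 13 fell and 1 rose (median log2 -0.10). The falls included receptors and secreted antagonists alike: Sfrp1, Fzd4, Sfrp4 (-0.80), and the R-spondin receptors Lgr4 (-0.49) and Lgr5 (-0.40). Among 32 YAP and TGF-beta target and pathway genes, 11 fell and 5 rose (median log2 -0.07). The ligands Tgfb3 (-0.75) and Tgfb2 (-0.53) and the target Tgfbi (-0.64) were lower, whereas the receptor Tgfbr1 (0.49) and the matricellular target Ccn2 (0.46) were higher.

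Of 28 contractile and cytoskeletal genes, 9 fell and 0 rose (median log2 -0.07). Smooth muscle actin, Acta2, read 12.20, 12.27 and 12.15 in SCR Cont and 11.66, 11.82 and 11.61 in HSF1-KD Cont (log2 difference -0.51, adjusted p = 3.5e-05). Vinculin (Vcl), which links integrin adhesions to actin, fell by 0.49, and lamin A/C (Lmna) by 0.46. Matrix proteases and their inhibitors split, with 7 rises and 10 falls among 34 genes (median log2 0.01). The count of falls dropped to 6 without HSF1-KD Cont replicate 2 or SCR Cont replicate 3. The urokinase receptor Plaur rose by 0.74, urokinase itself (Plau) by 0.54 and the membrane protease Adam8 by 0.76, while Adamts1 and Mmp11 fell by 0.43 and 0.44.

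Of 35 genes of ATF4 and the integrated stress response, which serve amino acid supply among other roles, 13 fell and 2 rose (median log2 -0.15). The other 20 did not pass the test, among them Atf4 itself (-0.16, adjusted p = 0.0866), and the rises numbered 1 without SCR Cont replicate 1 or 2 or HSF1-KD Cont replicate 2. Slc7a5, the large neutral amino acid transporter, read 12.70, 12.72 and 12.77 in SCR Cont and 11.93, 11.90 and 11.996 in HSF1-KD Cont (log2 difference -0.79, standard error 0.0588, adjusted p = 7.89e-07). Wars, the tryptophanyl-tRNA synthetase, had a log2 difference of -0.69. The mitochondrial folate enzyme Aldh1l2 (-0.50), the glutathione-degrading enzyme Chac1 (-0.38) and asparagine synthetase, Asns (-0.32), were called lower as well.

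Of 32 genes of glycolysis and hypoxia, 10 fell, 1 rose and 21 were not called (median log2 -0.08). After heat shock the same list gave 9 higher and 3 lower genes. Ndrg1 (-0.90), the mitophagy receptor Bnip3 (-0.81), the HIF hydroxylase Egln3 (-0.75) and the pyruvate dehydrogenase kinase Pdk1 (-0.56) led. Bnip3 read 10.77, 10.81 and 11.03 in SCR Cont and 10.26, 10.07 and 9.87 in HSF1-KD Cont, with replicate 3 of each group the most extreme. Hexokinase 1 (Hk1) was lower by its brightest probe set (-0.28, adjusted p = 0.00293), but its other probe set gave a log2 difference of 0.11 (adjusted p = 0.217).

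Replication-dependent histone genes showed the lowest median of the lists examined. Of 23 measured, 16 fell and 1 rose (median log2 -0.48). The mean of the list was 9.87 to 9.92 in the SCR Cont arrays and 9.32 to 9.54 in the HSF1-KD Cont arrays, without overlap. H2ac4 (-1.13), H2bc3 (-0.99), H4c6 (-0.78) and the linker histone H1f1 (-0.72) had the largest falls. These genes are near-identical copies, so which copy fell is uncertain.

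Genes of DNA replication followed in direction with smaller sizes. Of 46, 14 fell and 3 rose (median log2 -0.09). The licensing factor Cdt1 fell by 0.38, the polymerase clamp Pcna by 0.34 and the helicase subunit Mcm7 by 0.33 on the log2 scale. Pcna read 12.70, 12.69 and 12.69 in SCR Cont and 12.41, 12.32 and 12.34 in HSF1-KD Cont. Of 38 mitosis genes 11 fell and 1 rose (median log2 -0.05), with the spindle factor Tpx2 (-0.38), the motor genes Cenpe (-0.37) and Kif11 (-0.33) the lowest.

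Cytosolic ribosomal protein genes were lower or not called. Of 55, 22 fell and 0 rose (median log2 -0.15). Rps20 read 12.59, 12.47 and 12.46 in SCR Cont and 12.13, 11.998 and 12.07 in HSF1-KD Cont (log2 difference -0.44, adjusted p = 1.54e-05). The count of falls was 12 without HSF1-KD Cont replicate 2, so part of it rests on that array. Of 36 ribosome biogenesis genes, 5 rose and 1 fell (median log2 0.12). The rises numbered 2 without HSF1-KD Cont replicate 2 or SCR Cont replicate 3, and the fall was lost without HSF1-KD Cont replicate 3 or SCR Cont replicate 1.

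The largest rises included Lipg, C3ar1 and Cyp2c55. Lipg, the endothelial lipase that cleaves phospholipids of HDL, read 7.89, 7.97 and 7.79 in SCR Cont and 9.33, 9.38 and 9.19 in HSF1-KD Cont (log2 difference 1.42, standard error 0.0731, adjusted p = 5.1e-08). Every knockdown array lay more than 1 log2 unit above every control. Cyp2c55 and Cyp2c65, cytochrome P450 genes of a large and closely related family, had log2 differences of 1.41 and 1.20. Ptgs2, the inducible cyclooxygenase of prostaglandin synthesis, read 10.27, 10.31 and 10.02 against 11.18, 11.28 and 11.18 (log2 difference 1.01, adjusted p = 4.24e-07).

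C3ar1, the receptor for complement C3a, read 7.57, 7.62 and 7.18 in SCR Cont and 8.77, 8.91 and 8.80 in HSF1-KD Cont (log2 difference 1.37, standard error 0.114, adjusted p = 1.82e-06). The cytokine gene Il6 read 8.07, 7.98 and 7.53 against 9.19, 8.76 and 9.04 (log2 difference 1.14, standard error 0.146, adjusted p = 8.79e-05), with SCR Cont replicate 3 the lowest. Fxyd5, a modulator of the sodium pump, read 10.38, 10.38 and 10.25 against 11.46, 11.59 and 11.61 (log2 difference 1.21). The groups did not overlap for these 3 genes, but this was a condition for picking the largest rises and is no separate evidence.

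The chemokine gene Ccl17 rose by 1.19, the checkpoint ligand gene Cd274 (PD-L1) by 0.95, the nectin-like receptor gene Pvr by 1.00 and the NKG2D ligand gene Raet1d by 1.08 on the log2 scale. Mcpt8 (1.33) and Ly6g (1.25) mark basophils and neutrophils in blood, and Iqcg (0.93) is a gene of cilia and flagella. Mcpt8, Ly6g and Raet1d belong to multigene families whose members can share probes. In SCR Cont, Mcpt8 (6.35 to 6.40) and Ly6g (6.67 to 6.72) lay below the gene median.

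The mean of 10 markers of macrophages and blood cells was 6.99 to 7.06 in SCR Cont and 7.13 to 7.23 in HSF1-KD Cont, and 3 were called higher: Lyz2 (0.44), Cd68 (0.35) and Itgam (0.25). The last 2 were lost without SCR Cont replicate 3 (adjusted p = 0.074 and 0.165), among other arrays. The pan-leukocyte gene Ptprc (6.26, 6.13 and 6.17 against 6.24, 6.49 and 6.37) was not called. The part of such cells in the immune gene rises was not tested.

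Interferon-stimulated genes were higher as a list. Of 53, 32 rose and 2 fell (median log2 0.27), and with 1 array left out 24 to 30 rose. The list mean was 9.48 to 9.54 in the SCR Cont arrays and 9.74 to 9.79 in the HSF1-KD Cont arrays, without overlap. Oas2, an antiviral 2'-5'-oligoadenylate synthetase, read 9.05, 9.06 and 8.78 in SCR Cont and 9.97, 9.85 and 9.93 in HSF1-KD Cont (log2 difference 0.95, standard error 0.077, adjusted p = 1.41e-06).

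Ccl5 (0.90), the antiviral radical enzyme Rsad2 (0.86), the guanylate-binding protein gene Gbp3 (0.77) and Oas1a (0.71) were the next largest. Irf7, the transcription factor that amplifies type I interferon and was named after its values were seen, rose by 0.31. The falls were Ube2l6 (-0.43) and the peptide transporter Tap1 (-0.20). All cells carried an adenovirus, SCR cells included, and the dose that each culture took up was not measured on these arrays.

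Inflammatory genes were mixed. Of 32 cytokine and NF-kappaB genes, 14 rose and 4 fell (median log2 0.18), and 7 rose without HSF1-KD Cont replicate 2. Besides Il6 and Ptgs2, the chemokine gene Ccl20 rose by 0.74. The falls included Cxcl12 and Il1rn, the interleukin-1 receptor antagonist, which read 9.15, 9.29 and 9.28 in SCR Cont and 8.63, 8.58 and 8.36 in HSF1-KD Cont (log2 difference -0.72, adjusted p = 1.06e-05).

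Of 30 genes of sterol and fatty acid synthesis, 19 rose, 1 fell and 10 were not called (median log2 0.21). The fall was lost without HSF1-KD Cont replicate 2 or any 1 of the SCR Cont arrays. The list mean was 11.14 in each SCR Cont array and 11.33 to 11.35 in the HSF1-KD Cont arrays. Dhcr7, a reductase that yields cholesterol, read 10.31, 10.30 and 10.37 in SCR Cont and 10.80, 10.73 and 10.83 in HSF1-KD Cont (log2 difference 0.46, adjusted p = 5.93e-05).

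Hsd17b7 (0.61), lanosterol synthase, Lss (0.46), Sc5d (0.38) and Cyp51 (0.37) act along the same pathway. Their regulators Srebf1 and Srebf2, named after their values were seen, had log2 differences of 0.30 and 0.16 (adjusted p = 0.000242 and 0.0113). Lysosomal genes also included more rises than falls, 12 and 2 of 38 (median log2 0.07), with the hydrolases Manba (0.39), Gusb (0.38) and Ctsz (0.35) among the rises and the membrane protein Scarb2 (-0.43) among the falls.

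**Figure D4:**
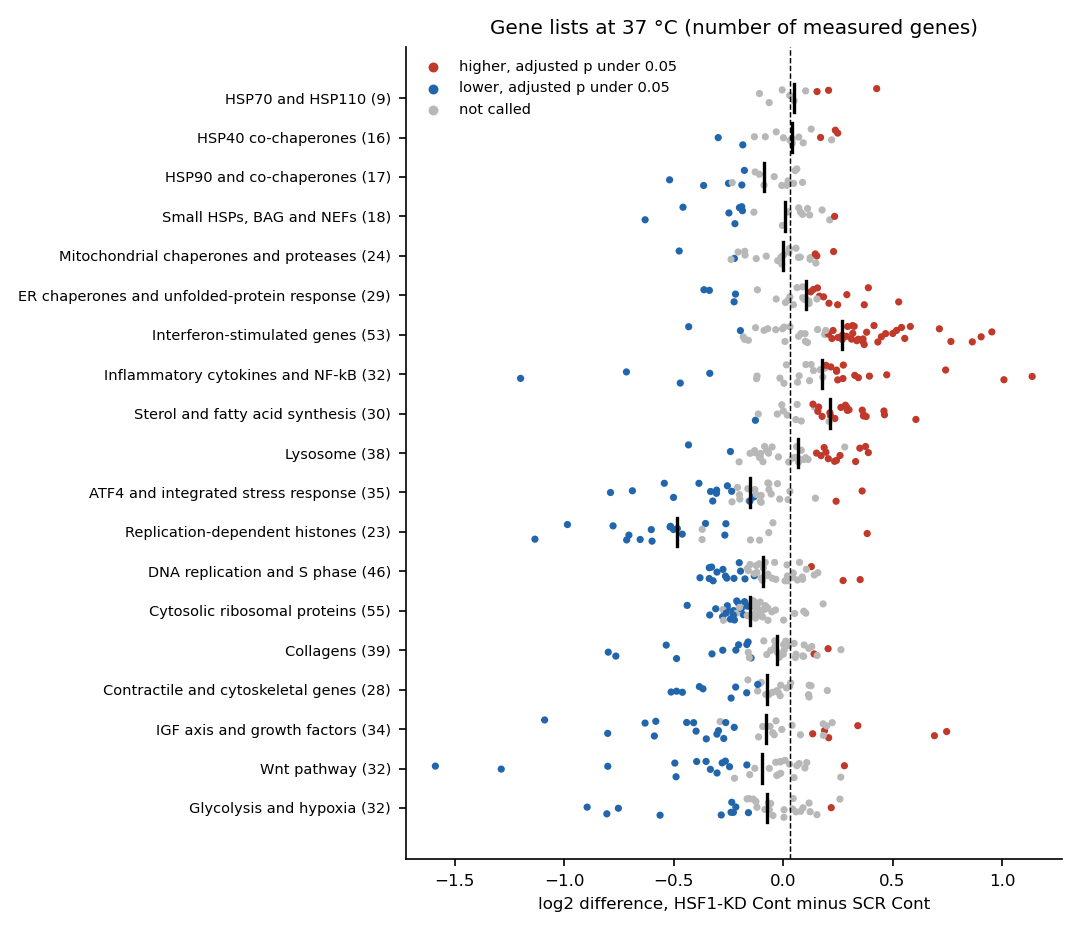
Log2 difference between HSF1-KD Cont and SCR Cont (horizontal axis) for the members of 19 gene lists (rows, number of measured genes in parentheses). Red and blue points are genes called higher and lower, grey points genes not called, black bars list medians, and the dashed line is the median of all genes (0.03); histones have the lowest median (-0.48) and interferon-stimulated genes the highest (0.27).

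Immediate-early genes gave 10 falls and 5 rises of 40 (median log2 -0.03). Egr1, the serum-responsive zinc finger factor, read 11.19, 11.24 and 11.36 in SCR Cont and 10.66, 10.48 and 10.70 in HSF1-KD Cont (log2 difference -0.65, adjusted p = 1.5e-05), and Jun fell by 0.38. Circadian genes gave 6 rises and 2 falls of 20 (median log2 -0.01). Per2, a repressor arm component, was 8.60, 8.59 and 8.57 against 8.90, 8.97 and 8.91 (log2 difference 0.34), and Per1 (0.33), Nr1d1 (0.30) and Clock (0.26) rose with it.

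Of 73 nuclear-encoded respiratory chain genes, 4 rose and 10 fell (median log2 0.01), with the complex I subunits Ndufa6 (-0.52) and Ndufb7 (-0.49) the lowest. The rises numbered 0 without HSF1-KD Cont replicate 2 and the falls 6 without SCR Cont replicate 1 or 2. Of 23 genes of mitochondrial DNA upkeep and expression, 4 rose and 0 fell (median log2 -0.01), and 0 were called without SCR Cont replicate 3 or HSF1-KD Cont replicate 2. Tfam, which packages mitochondrial DNA, had a log2 difference of 0.01 (adjusted p = 0.985).

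Proteasome subunits gave 2 rises and 2 falls of 39, ubiquitin and autophagy genes 4 and 5 of 19, NRF2 and metal-response genes 3 and 5 of 27, p53 targets 4 and 3 of 28, and complement genes 1 and 2 of 17. Their medians were 0.01, -0.02, -0.04, 0.01 and 0.04. Over all genes, 10.9% were higher and 10.1% lower. Without HSF1-KD Cont replicate 2 the falls numbered 0 for the proteasome, 3 for NRF2, 1 for p53 and 1 for complement. Named members were Sqstm1 (p62), the autophagy receptor, with a log2 difference of -0.23, and Mdm2, the ubiquitin ligase for p53, with 0.35. RNA interference genes, examined because the knockdown works through a hairpin RNA, gave 4 rises and 1 fall of 14 (median log2 0.11), with Tarbp2 (0.33) and Tnrc6a (0.31) the highest. Tarbp2 was not called with its second probe set or with the t-test of the study's methods (highest adjusted p of the alternatives 0.104).

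The same knockdown was compared in heat-shocked cells on 6 other arrays. After heat shock, 2604 genes (13.1%) were higher and 2127 genes (10.7%) lower in HSF1-KD than in SCR cells. The genes called higher in both numbered 1557, which is 71.5% of those at 37 °C and 59.8% of those after heat shock. Called lower in both were 1494, which is 74.2% and 70.2%. Of the 115 rises over 1.5-fold at 37 °C, 112 (97.4%) were called higher after heat shock, and of the 207 falls 197 (95.2%) were called lower. Ptprz1, Serpinb9, Uck2 and Lipg had log2 differences of -2.02, -1.73, -1.30 and 1.26 after heat shock, and none of the 4 was called in the test of the difference between temperatures.

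The size of the knockdown effect itself differed between the temperatures for few genes. In the test of that difference, 2 genes (0.01%) were more positive after heat shock and 67 genes (0.336%) more negative. Of these 69 genes, 40 were not called at 37 °C and 59 were called lower after heat shock. Chaperones described above that were among them are Hspa1a, Dnajb1, Hsph1, Bag3, Hspb1, Hspb8, Hspa4l, Dnaja1, Hspd1, Hsp90aa1, Fkbp4, Hspe1 and Serpinh1. Others, such as Ptges3 (log2 -0.52 without heat and -0.68 with it), Stip1, Ttc4, Cryab and Hspa5, were not called in this test. Hspb1 was lower by 0.63 without heat and by 2.51 with it, reading 13.76, 13.90 and 14.002 in SCR HS and 11.41, 11.46 and 11.26 in HSF1-KD HS (adjusted p of the difference 2.42e-08).

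Of the 67 genes, 12 were already called lower at 37 °C and 16 were called higher there. Hspa4l was among the latter: higher by 0.43 without heat and lower by a log2 difference of -0.58 with it (adjusted p of the difference 6.12e-06). Uspl1, a SUMO isopeptidase, had 0.28 and -1.19, its call at 37 °C being lost without SCR Cont replicate 3 or HSF1-KD Cont replicate 2 (highest adjusted p = 0.0731). The other way, Egr1 was more positive after heat, with log2 differences of -0.65 and -0.13 (adjusted p of the difference 0.0284).

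**Figure D5:**
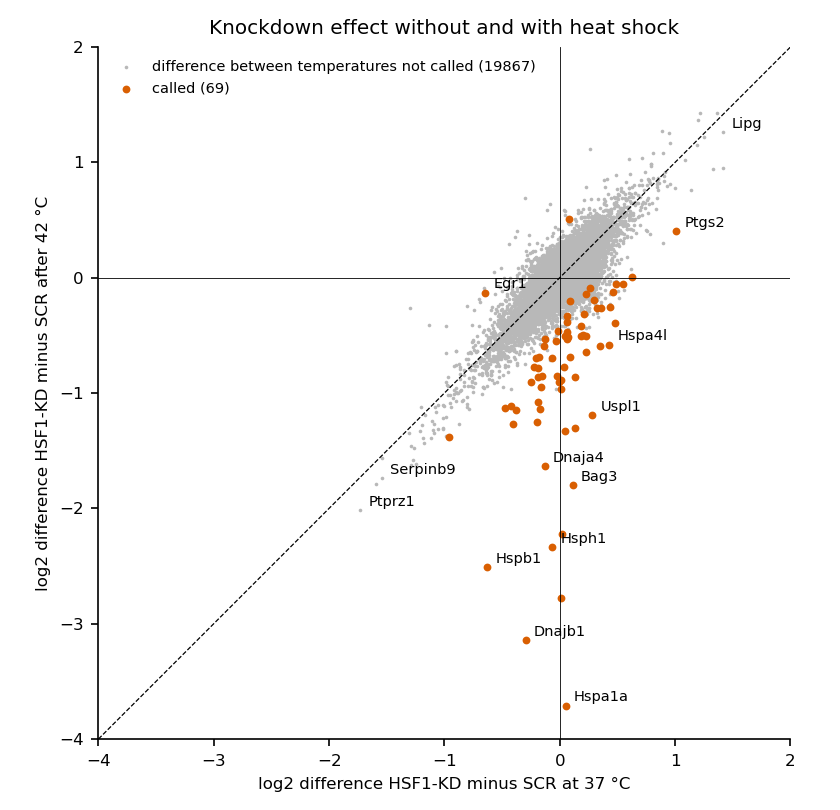
Log2 difference between HSF1-KD and SCR cells after 42 °C (vertical axis) against that at 37 °C (horizontal axis), 1 point per gene, with the dashed line marking equal values. The 69 genes whose difference depends on temperature (orange) lie mostly below the line, Hspa1a, Dnajb1, Hspb1 and Hsph1 farthest, whereas Ptprz1, Serpinb9 and Lipg lie near it.

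The SSBP1-KD cells carried another hairpin adenovirus and were compared directly with the HSF1-KD cells at 37 °C, as a second reference for what was shared between viruses. In that test 3305 genes (16.6%) were higher and 2563 genes (12.9%) lower in HSF1-KD. This comparison and the one against SCR share the HSF1-KD arrays, so the values are only set side by side. SSBP1-KD Cont replicate 1 also lay farther from its group mean than any other array (mean absolute residual 0.152, against 0.0700 to 0.11). Without that array, 3096 genes were higher and 2529 lower.

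Of the 2178 genes higher than in SCR, 1126 (51.7%) were called higher than in SSBP1-KD and 120 (5.51%) lower. Of the 2014 lower genes, 823 (40.9%) were called lower and 317 (15.7%) higher. Among the 115 rises over 1.5-fold, 78 (67.8%) were called the same way and 6 (5.22%) the other way. For the 207 falls over 1.5-fold these numbers were 90 (43.5%) and 44 (21.3%). Some large differences from SCR were also large against SSBP1-KD. Uck2 read 12.38, 12.42 and 12.44 in SSBP1-KD cells, and HSF1-KD differed from them by a log2 value of -1.20 (adjusted p = 3.45e-09), against -1.01 from SCR. Lipg read 7.59, 7.63 and 7.52, which HSF1-KD exceeded by 1.72 (adjusted p = 4.16e-09), against 1.42. Serpinb9 (-0.91), Slc6a9 (-0.85), Ccl17 (1.30), Hspb1 (-0.70), Hspe1 (-0.73) and Ptges3 (-0.46) kept the direction they had against SCR in that test, each at an adjusted p under 0.05.

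Other large differences were not called against SSBP1-KD. Ptprz1 read 8.41, 8.83 and 8.67 in SSBP1-KD cells, and its log2 difference from them was -0.13 (adjusted p = 0.501), against -1.73 from SCR. Cxcl12 (-0.10, adjusted p = 0.363), Rtn1 (-0.01, adjusted p = 0.966) and Cyp2c55 (-0.01, adjusted p = 0.978) likewise were not called. Whether the SCR virus or the knockdown viruses set these levels cannot be told apart with 1 construct each.

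Some genes were called in opposite directions against the 2 references, and 3 named ones serve as examples. Ptgs2 was higher in HSF1-KD than in SCR by 1.01 and differed from SSBP1-KD by -0.38 (adjusted p = 0.000725), SSBP1-KD cells reading 11.59, 11.64 and 11.56. Igf2 differed by -0.80 from SCR and by 1.11 from SSBP1-KD, and Sfrp1 by -1.59 and 0.32 (adjusted p = 0.0489). Of the interferon-stimulated genes 45 of 53 were called higher than in SSBP1-KD and 0 lower, and of the sterol and fatty acid genes 28 of 30 higher and 1 lower, the SSBP1-KD list means being 9.13 to 9.21 and 10.75 to 10.77.

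Lists with more falls than rises against SCR gave other counts against SSBP1-KD. Of 23 histone genes, 2 were higher and 4 lower than in SSBP1-KD, whose own median log2 difference from SCR was -0.44. Collagens gave 10 higher and 0 lower of 39, and the other matrix genes 20 higher and 4 lower of 41. Glycolysis and hypoxia genes gave 14 higher and 2 lower of 32, and IGF axis and growth factor genes 13 higher and 5 lower of 34. Contractile genes gave 0 higher and 13 lower of 28, ribosomal protein genes 0 and 18 of 55, and genes of DNA replication 6 and 17 of 46. Ribosome biogenesis genes, with more rises than falls against SCR, gave 0 higher and 22 lower of 36.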

How the data were processed

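Log2 signals deposited by the authors for 35557 probe sets on 18 arrays (Mouse Gene 1.0 ST, 6 groups of 3) were used as deposited. The submitters' processing notes name RMA and Partek 6.5; their settings are not given in the sources used here. Probe sets with 1 gene symbol (21789) were named from the platform annotation, with symbols updated through Entrez IDs (21698) or accessions (3), and 88 kept the file's symbol. The brightest probe set stood for each of 19936 genes (1001 had several).

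A mean per group was fitted over all 18 arrays with limma 3.58.1 (R 4.3.3; 12 residual degrees of freedom, 2.361 prior), with Benjamini-Hochberg adjustment over all probe sets and calls at 0.05. Figures were drawn with matplotlib 3.10.9 (Python 3.11.15). RefSeq promoter windows were searched for heat shock elements. The fit was tested on simulated data. Alternatives changed the scaling, filters, arrays, block, variance prior and test.

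The members and gene lists were chosen with earlier results of these data known. Named genes are the 15 largest rises and falls without overlap between groups, genes the study names, up to 6 called members of each list (any chaperone), and genes whose effect differed with heat; others are marked where named. Hsf1 was not analysed here. Arrays of the same replicate number correlated at 0.008 to 0.105 in their residuals.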

Additional observations from a re-analysis of the deposited data

Results flagged for a closer look

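For 24 named genes the knockdown effect differed between heat-shocked and unstressed cells in the test of that difference (limma, adjusted p from 1.04e-11 to 0.0317). The values are the log2 effect after heat shock minus that at 37 °C. Chaperones and their partners were more negative after heat: Hspa1a by -3.76, Dnajb1 by -2.85, Hsph1 by -2.27, Bag3 by -1.91, Hspb1 by -1.88, Dnaja4 by -1.50, Dnajb4 by -1.37, Hspb8 by -1.05, Hspa4l by -1.01, Dnaja1 by -0.89, Hspd1 by -0.83, Hsp90aa1 by -0.78, Clu by -0.77, Fkbp4 by -0.66, Hspe1 by -0.65 and Serpinh1 by -0.55. Outside the chaperones, Uspl1 differed by -1.47, Saraf by -0.94, Slc5a3 by -0.88, Ptgs2 by -0.61, Plau by -0.60, Ccn2 by -0.58 and Tgfbr1 by -0.54. Egr1 was the only one of the 24 with a more positive effect after heat, by 0.52. Groups of 3 arrays were not tested for outlying arrays.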

How the results depend on the processing

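At 37 °C the counts of higher and lower genes were 2178 and 2014. They were 116 and 211 for genes over 1.5-fold at an unadjusted p under 0.05, and 1297 and 1304 with the 6 compared arrays alone. The methods' t-test gave 943 and 1011 after Benjamini-Hochberg adjustment, and 3332 and 2719 at an unadjusted p under 0.05. Leaving out 1 array gave 1536 to 1997 higher and 1542 to 1877 lower genes. Genes whose effect was more positive after heat (2) numbered 9 in the brighter probe sets, 7 in probe sets with 1 symbol and 7 with a trended prior, and 1 to 8 with 1 array left out. Hk1 changed sign with its second probe set (0.11).

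Arrays of the same replicate number had residual correlations of 0.008 to 0.105, and 2 of 3 numbers fitted best with themselves. With 3 arrays per group this cannot settle whether the replicate number pairs the arrays. With the replicate block 2062 genes were higher and 1906 lower.

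Of 255 named and called genes, 137 were called in every alternative run for them and 202 in every fit without 1 array. Setting array medians equal shifted all differences by -0.02 and gave 1689 higher and 2245 lower genes, so lower genes then outnumbered higher ones. The 3 arrays per group limit what small differences can be shown.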
